A study of Homo sapiens with 7 samples.

Results

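The S100 genes encode small calcium-binding proteins, and 10 of them, S100 genes of epithelium and of myeloid cells, were looked up by symbol in the expression values of HCT116 cells. HCT116 is an established human colon carcinoma cell line. Of the 10 genes, 8 had a value among the 20423 genes listed: S100A2, S100A4, S100A6, S100A10, S100A11, S100A14, S100A16 and S100P. S100A8 and S100A9 had no row under these symbols and were not analysed here. The study mapped transposon insertions in this line by the piggyBac transposase joined to SP1, a transcription factor (SP1_PB, 2 libraries), and by the wild-type transposase (WT_PB, 3 libraries). Peaks of 1 SP1 ChIP-seq sample and 1 polyA RNA library complete it. Every value below comes from the RNA library. No treatment or genetic change is given for the cells of that library, and the drug selection in the labels' growth protocol is stated for transposition.

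Each S100 protein carries a pair of EF hands, the helix-loop-helix folds that hold calcium, and most work as dimers that bind a target protein when calcium rises. Many of the targets are annexins, which bind membranes in a calcium-dependent way, or parts of the cytoskeleton. Most human S100 genes lie together on the long arm of chromosome 1, in and beside the epidermal differentiation complex, whose other genes build the outer skin. In the gut, S100A8 and S100A9 are known as calprotectin, a protein of neutrophils and monocytes that is measured in stool as a sign of inflammation.

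The promoters shown first are those of members that differ in level and in promoter elements. Each is the 250 bases before the annotated gene start on the gene's own strand, from RefSeq on GRCh38.p14, while the expression values were made on hg18. Capitals mark GGGCGG, the core of the GC box that SP1 binds, on either strand, and TATAA on either strand where it starts 20 to 40 bases before the gene start. In S100A6 2 of the GGGCGG matches overlap, and in S100P TATAA matches on both strands overlap. Shown are the member with the highest level and both elements (S100A6), the next highest, with a GC box (S100A11), and 2 members with TATAA whose levels were far apart (S100A14 and S100P).
S100A6, chr1:153535992-153536241, minus strand: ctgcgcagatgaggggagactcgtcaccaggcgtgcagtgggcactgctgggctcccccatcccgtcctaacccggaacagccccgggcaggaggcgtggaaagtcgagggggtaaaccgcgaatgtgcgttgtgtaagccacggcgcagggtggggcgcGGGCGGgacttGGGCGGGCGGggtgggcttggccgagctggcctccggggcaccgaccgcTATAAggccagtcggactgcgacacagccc
S100A11, chr1:152037005-152037254, minus strand: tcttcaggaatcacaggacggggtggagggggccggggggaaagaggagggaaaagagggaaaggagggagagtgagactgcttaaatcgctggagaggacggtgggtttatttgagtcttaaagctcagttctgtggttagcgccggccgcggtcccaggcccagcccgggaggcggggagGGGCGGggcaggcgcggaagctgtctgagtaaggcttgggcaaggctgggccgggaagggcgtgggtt
S100A14, chr1:153616326-153616575, minus strand: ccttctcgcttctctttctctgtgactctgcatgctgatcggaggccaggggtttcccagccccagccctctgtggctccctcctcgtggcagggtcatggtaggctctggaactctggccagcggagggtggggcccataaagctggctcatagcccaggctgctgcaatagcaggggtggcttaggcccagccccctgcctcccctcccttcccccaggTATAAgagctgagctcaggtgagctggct
S100P, chr4:6693628-6693877, plus strand: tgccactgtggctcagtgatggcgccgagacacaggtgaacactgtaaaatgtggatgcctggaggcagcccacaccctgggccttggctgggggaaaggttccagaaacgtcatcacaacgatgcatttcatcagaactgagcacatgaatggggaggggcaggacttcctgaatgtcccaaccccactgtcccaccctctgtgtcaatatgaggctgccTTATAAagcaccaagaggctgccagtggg

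Most of the 8 members were abundant in HCT116 cells, but not evenly so. Expression was deposited as RPKM, reads scaled to transcript length and to the mapped reads of the library. Levels of different genes are set side by side on this scale. How far transcript length or shared reads still affect such ratios was not checked. Of the 8 members 6 stood at 100 RPKM or more, a level that 2.43% of all genes reached, 7 at 10 RPKM or more (24.4% of all genes) and 8 at 1 RPKM or more (57.0% of all genes). The median of the members, which were chosen with earlier results of these data known, was 163 RPKM, against 1.91 RPKM over all genes. With 1 library there is no replicate and no test, so differences between members have no error and neighbours in the order cannot be called different.

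S100A6, or calcyclin, was by far the highest member. It stood at 1439 RPKM, rank 25 of all genes counted from the highest, and was the only member at 1000 RPKM or more, a level reached by 0.196% of all genes. Its value was 4.30 times that of the next member and made up 59.3% of the summed RPKM of the 8 members. In rank it stood directly below the ribosomal protein gene RPL28 at 1445 RPKM. It was 2.65 times KRT19, the highest of the epithelial markers, and 0.624 times GAPDH, the glycolytic enzyme often used as a loading standard.

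S100A11, or calgizzarin, a partner of annexin A1 that is abundant in keratinocytes, came next at 335 RPKM and rank 120. With S100A6 it was among the highest 1% of all genes. It was 1.90 times the third member, S100A16. RefSeq names 10 pseudogenes of S100A11, none of which has an expression value here, and no source used here says how reads shared between such copies were assigned.

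A group of 4 members stood close together below S100A11. S100A16, a widely expressed member, was at 176 RPKM and rank 261. S100A4, also called metastasin, binds the heavy chain of non-muscle myosin IIA, and was at 163.3 RPKM and rank 289. S100A10, also called p11, does not bind calcium and pairs with annexin A2 at the plasma membrane. It was at 162.9 RPKM and rank 290, directly below S100A4 and directly above ANXA1 at 162.7 RPKM. S100A14, known from epithelia, was at 134 RPKM and rank 360, directly below SFN, the epithelial 14-3-3 protein sigma, at 134.3 RPKM. From the highest to the lowest of these 4 the ratio was 1.31.

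The remaining pair of members was far lower. S100A2, a nuclear member of basal epithelial cells, stood at 14.5 RPKM and rank 3775, and S100A14 was 9.24 times as high. S100P, first described in placenta and known from many carcinomas, stood at 1.51 RPKM and rank 10796, below the median of all genes, and S100A6 was 950 times as high. It is also the member that lies apart from the others, on chromosome 4.

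Genes of like level in this 1 library came from many kinds of function, and a like level in a single library shows no shared pattern. S100A11 stood between POLR2L, a subunit of RNA polymerase II, at 335.4 RPKM and PHLDA2, an imprinted gene, at 332 RPKM. S100A16 stood between PPP1CA, a catalytic subunit of protein phosphatase 1, at 177 RPKM and ATP5G2 of the ATP synthase at 176.1 RPKM. Above S100A4 was ODC1, the first enzyme of polyamine synthesis, at 164 RPKM, and below S100A14 was SSR4 at 134.2 RPKM. The lower pair of members had STYXL1 and LMBR1L beside S100A2, and WHAMM and SNORA7B beside S100P.

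**Figure D1:**
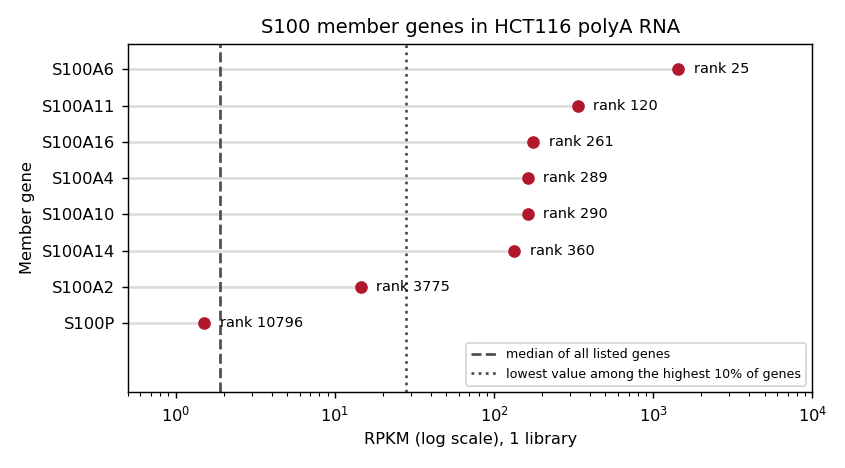
RPKM of the 8 S100 members with a value (points, log axis) in 1 polyA library, with their rank among all listed genes. The dashed line is the median of all genes (1.91 RPKM) and the dotted line the lowest value among the highest 10% of genes (28.1 RPKM): 6 members lie right of the dotted line, S100A2 between the lines and S100P left of the dashed line.

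Among the S100 genes that are not members, S100A13 was alone in reaching 100 RPKM. It takes part in the release of growth factors that lack a signal peptide, and stood at 105 RPKM. Of 11 such genes, S100A13 included, 8 had a value. S100A3 was at 7.44 RPKM, S100A5 at 7.37 RPKM and S100A1, known from heart muscle, at 3.03 RPKM. The psoriasin genes S100A7 and S100A7A were at 0.0487 and 0.0050 RPKM, and S100G and S100Z were listed at 0. A listed 0 can be a failed estimate, since CTSD, which encodes the lysosomal protease cathepsin D of most cells, was also at 0. The 8 genes that are not members had a median of 1.54 RPKM, below the 1.91 RPKM of all genes, and all 16 S100 genes with a value had a median of 10.99 RPKM. Members and others together, 12 of 16 S100 genes with a value stood at 1 RPKM or more and 7 at 100 RPKM or more. Of all genes 57.0% and 2.43% reached these levels.

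High and low S100 genes lay next to each other along chromosome 1. RefSeq places 63 protein-coding genes from S100A10 to S100A1, taken here for their order only, and 37 of them had a value. All 7 genes at 100 RPKM or more in this segment were S100 genes, 6 of them members. At one end lay S100A10 and S100A11, and at the other S100A6, S100A5, S100A4, S100A3, S100A2, S100A16, S100A14, S100A13 and S100A1 in this order. S100A6 stood beside S100A5, whose value was 7.37 RPKM, and the next gene, S100A4, was at 163.3 RPKM and followed by S100A3 at 7.44 RPKM. S100A4 and S100A5 overlap in the RefSeq annotation, and S100A13 overlaps S100A1 and CHTOP. S100A6 and S100A5 both overlap the same uncharacterised locus, and S100A4 and S100A3 both overlap a different locus. No source used here says whether the library kept strand, so the split of reads between overlapping genes is uncertain.

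The genes between S100A11 and S100A6 that build the outer skin were low where they had a value. Of 47 genes of the segment that are not S100 genes only 24 had a value. Of these 24, 21 were below 1 RPKM and none reached 10 RPKM, while 57.0% of all genes reached 1 RPKM. Listed at 0 were 11 of the 24, and a listed 0 can be a failed estimate. The 6 S100-fused genes, which join an S100 domain to a long repeat and include FLG, the gene of filaggrin, ran from 0 to 0.130 RPKM. The highest were HRNR at 0.130 RPKM, TCHH at 0.0746 RPKM and FLG at 0.0368 RPKM. Of 19 late cornified envelope (LCE) genes 6 had a value, and all 6 were listed at 0. The small proline-rich (SPRR) genes reached higher, with SPRR2D at 8.51 RPKM, SPRR1B at 1.45 RPKM and SPRR2B at 1.11 RPKM, and the other 6 of 9 were below 1 RPKM.

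**Figure D2:**
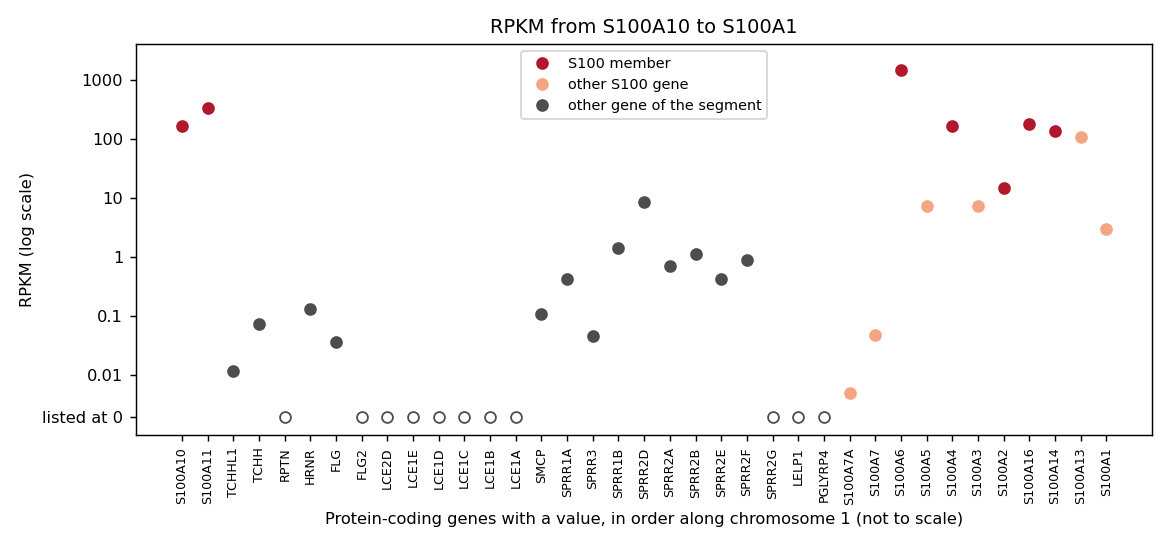
RPKM (log axis) of the 37 protein-coding genes with a value from S100A10 to S100A1, in their order along chromosome 1 and not to scale. Dark red points are S100 members, light ones other S100 genes and grey ones other genes, and open circles are listed at 0. The points at 100 RPKM or more lie at both ends of the segment and all are S100 genes, with 21 of 24 other genes below 1 RPKM between them.

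The annexin partners of the members were also abundant. Of 12 annexin genes 10 stood at 1 RPKM or more (57.0% of all genes) and 2 at 100 RPKM or more (2.43%). Their median was 31.97 RPKM. ANXA2, the partner of S100A10, was the highest annexin at 396 RPKM, 2.43 times S100A10. For the pair of S100A11 and ANXA1 the S100 gene was the higher, 2.06 times ANXA1 at 162.7 RPKM. ANXA5 followed at 81.1 RPKM and ANXA13 was listed at 0.

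Other binding partners ran over a wide range. Of 20 partner and receptor genes 16 stood at 1 RPKM or more (57.0% of all genes), with a median of 11.02 RPKM. The highest were EZR at 393 RPKM, which encodes ezrin, a linker of membrane and actin that S100P activates, BSG at 275 RPKM, which encodes the surface glycoprotein basigin, and PLAUR at 60.2 RPKM, the urokinase receptor. EZR was 259 times S100P. CACYBP, which encodes the calcyclin-binding protein, was at 6.69 RPKM, and S100A6 was 215 times as high. MYH9, the myosin heavy chain that S100A4 binds, was at 38.3 RPKM, and S100A4 was 4.26 times as high. Of the receptors known for S100 proteins outside the cell, AGER, which encodes RAGE, was at 9.72 RPKM and TLR4 was listed at 0.

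Genes of other EF-hand proteins were mostly expressed but lower than S100A6 and S100A11. Of 21 such genes 19 had a value, and their median was 26.1 RPKM. Of the 19, 15 stood at 1 RPKM or more (57.0% of all genes) and 2 at 100 RPKM or more (2.43%). CAPNS1, the small subunit of the calpain proteases, was highest at 290 RPKM, followed by the calmodulin gene CALM3 at 175 RPKM and PDCD6 at 92.5 RPKM. S100A6 was 8.22 times CALM3, and S100A11 also stood above CAPNS1, while the other members stood below CAPNS1.

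The markers of cell type were those of an epithelial line. Over all genes 57.0% reached 1 RPKM, the level used here. Of 8 epithelial markers 7 stood at 1 RPKM or more, with KRT19 at 543 RPKM, KRT8 at 378 RPKM, KRT18 at 268 RPKM, CLDN4 at 158 RPKM, EPCAM at 79.5 RPKM, CDH1 at 17.0 RPKM and CDX2 at 9.19 RPKM, while the brush border gene VIL1 was at 0.0313 RPKM. None of the 10 myeloid markers reached 1 RPKM: PTPRC, MPO, ELANE and TYROBP were listed at 0, and the highest of the others, CD14, was at 0.218 RPKM. Since S100A8 and S100A9 were not analysed here, nothing can be said of the calprotectin genes in this line.

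Markers of squamous and mesenchymal cells were mostly low, with COL1A1 an exception. Of the squamous markers with a value KRT5 was at 0.0526 RPKM, KRT14 at 0.0578 RPKM and SPRR1B at 1.45 RPKM, TP63 was listed at 0, and IVL and LOR were not analysed here. The level of S100A2 stood beside near-zero values of the basal keratins with which it is known to occur in skin. S100A4 is also known as fibroblast-specific protein, and it was 166 times as high as VIM, which encodes vimentin and was at 0.984 RPKM. COL1A1, a collagen gene, was at 14.5 RPKM, level with S100A2 and above the epithelial marker CDX2. Of the other mesenchymal markers PDGFRB was at 0.135 RPKM, THY1 at 0.125 RPKM and COL1A2 at 0.0277 RPKM, and DCN was listed at 0.

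**Figure D3:**
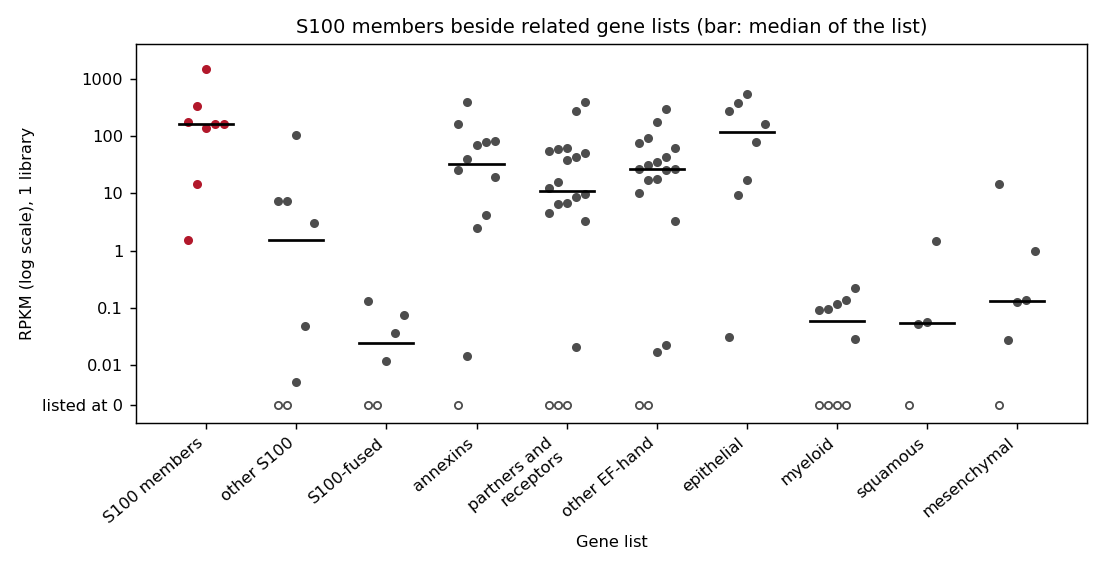
RPKM (log axis) of the S100 members (red, left) and of 9 related gene lists (grey) in 1 polyA library. Each point is a gene, open circles are listed at 0 and the black bar is the median of the list. The median of the members (163 RPKM) lies above those of the other lists, of which the epithelial markers come closest (119 RPKM). The 10 myeloid markers all lie below 1 RPKM. Members and lists were chosen with earlier results of these data known.

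The members did not share a single promoter element. In the 250 bases before the gene start, GGGCGG was found in at least 1 window of 4 of the 8 members, S100A6, S100A11, S100A16 (1 of 2 windows) and S100A10. On the same basis it was found in 65.5% of the 12633 genes with both an expression value and a window in the RefSeq table, so the members' share was not above that of all genes. It was found in 42.6% of all 35114 windows. S100A6 had 3 matches, as in the sequence shown above, and 13.9% of all windows had 3 or more. TATAA at 20 to 40 bases before the start was found in 4 members, S100A6, S100A4, S100A14 and S100P, against 7.18% of the 12633 genes and 4.72% of all windows. S100A6 alone had both, and S100A2, with 2 annotated windows, had neither. The GC content of the members' windows ran from 55.6% in S100P to 71.2% in S100A10, against a median of 58.0% over all windows.

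In the order of the 8 members by level, those with GGGCGG held places 1, 2, 3 and 5. Members with TATAA held places 1, 4, 6 and 8. Whether either element bears on level was not tested. S100A14 and S100P both carried TATAA, starting 29 bases before the gene start in S100A14 and 28 bases before it on the gene strand of S100P, and stood at 134 and 1.51 RPKM. S100A10 and S100A4, next to each other in level, differed in both elements, with a GC box alone in S100A10 and TATAA alone in S100A4. Over all genes matched to the RefSeq table by symbol, the median was 4.96 RPKM for 8280 genes with a GC box in a window and 0.303 RPKM for 4353 genes without one. For TATAA the medians lay the other way, at 0.334 RPKM for 907 genes with it and 3.23 RPKM for 11726 genes without, while 6.39% of the genes with it and 2.52% of those without reached 100 RPKM. In these medians a gene counted as having an element if any of its windows held it, and the number of windows per gene was not taken into account. A match describes the letters in the window and not a bound site.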

How the data were processed

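The 8 S100 genes were described from 1 polyA RNA library of HCT116 cells. Per the deposited readme, the authors aligned reads to hg18 with TopHat and computed RPKM per RefSeq gene with Cufflinks. The submitters' processing notes give its version as 1.1.0. No source used here gives the depth of the library or its strand setting, and no interval, floor or test was computed.

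The 20423 symbols each occurred once. Genes were ranked from the highest RPKM, with ties at their mean rank. Symbols not found were matched through synonyms that RefSeq (GRCh38.p14) gives to a single gene. Differences on a log2 scale, log2(RPKM + 1), were used only for the alternatives in the closing section. The members and lists were chosen with earlier results of these data known, and the gene order and promoter motifs were added after the values were seen. Named were all members, the genes next to them in rank, the 3 highest genes of each other list, all cell type markers and, chosen after their values were seen, partners of single members and genes of the segment; some values under this rule are not reported here. Ranking was tested on a short made list of values (Python 3.11.15, numpy 2.4.6, scipy 1.17.1). The motif search was tested on GGGCGG planted on either strand in simulated sequence of A and T. The search for TATAA and its limits of position was not tested. Insertions and peaks were not used here, since no hg18 gene positions were at hand to place the S100 genes among them.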

Additional observations from a re-analysis of the deposited data

How the results depend on the processing

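The count of members among the highest 10% of genes was 6 over all genes, over genes above 0 and over genes at or above 1 RPKM. The other alternatives planned for it, the highest line per symbol and RPKM rescaled to its sum over all genes, could not change it, since no symbol was listed in several lines and rescaling keeps ranks. Both filters on low members left out none of the 8, so the median of 163 RPKM could not change either. At least 0.5 RPKM was reached by 8 members and at least 5 RPKM by 7, all but S100P. The share of all genes at these levels was not computed, but 57.0% reached 1 RPKM and 24.4% reached 10 RPKM. The share of genes below S100P depended most on the genes ranked: it was 47.1% over all genes, 36.6% over genes above 0 and 7.23% over genes at or above 1 RPKM, while for S100A6 it stayed between 99.8% and 99.9%. With a pseudocount of 0.1 in place of 1 the log2 difference of S100P from S100A6 was -9.80 in place of -9.16. Of 47 alternative values 25 were labelled the same and 22 moved. Those that moved were 16 shares of genes below a member and 6 log2 differences. Most of the 25 could not have changed. They include every share of genes below a member under the highest line per symbol and under rescaling. The labels followed unlike rules. A count could change somewhat and keep the label, as in the fall from 8 members to 7 at 5 RPKM. Any change in a share, or in a rounded log2 difference, was labelled moved. Reversal was not tested, since neither the filters nor the pseudocount can change the order of the members. No paired analysis was possible because the RNA library is a single sample, and for the same reason no replicate could be left out.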
